A study of Homo sapiens with 2 samples.

Results

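The neuroepithelial progenitors (NEP) of the enteric crestosphere were examined as the 104 cells that carry the label NEP in the deposited D15 cell annotation, out of 5336 kept and 6320 deposited cells of that library and 15947 deposited cells in both libraries. The study differentiated H9, an established human embryonic stem cell line, towards enteric neural crest. The D10 library holds the adherent culture on Geltrex during crest induction. By the study's methods the induction media held SB431542 and CHIR 99021, a GSK3 inhibitor that activates WNT signalling. BMP4 was in the first of these media only, and retinoic acid in the last. The D15 library holds the free-floating crestospheres, which had been moved into a medium with FGF2 and a higher concentration of CHIR 99021. Each library pooled cells of 2 independent biological repeats that carry no label in the files, so each stage is 1 library of 1 cell line and no statistical test between cell classes or stages was possible. Stage, culture form, medium, depth and library cannot be told apart, and every interval below is a 95% interval that covers counting error only.

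The NEP cells were compared with the 5232 other kept D15 cells, which are 4934 enteric neural crest cells (ENC), 208 and 43 cells of the cranial placode clusters CP1 and CP2, and 47 mesenchymal cells (Mes), and with the 1811 NEP cells of D10. They made up 1.95% of the kept D15 cells (1.60% to 2.36%, exact Clopper-Pearson interval) and 1.90% of their unique molecular identifiers (UMIs, counts of captured RNA molecules). A NEP cell held 6186 to 16209 UMIs with a median of 10954, and 1762 to 3494 genes with a median of 2949. The class held 1147149 UMIs in all, against 59200595 in the other kept cells and 14038715 in D10 NEP. The deposited filter removed cells with 3500 genes or more, and 12 NEP cells lay within 100 genes of it. The 2 libraries shared 102 cell barcodes, 4 of them NEP cells of D15. Levels are UMIs per 1000000 UMIs of the class (CPM). Ratios are log2 ratios of CPM + 1 and understate differences of low genes. The clusters were made from these same counts, so the class against the rest is described and not tested.

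Neuroepithelial progenitors line the early neural tube, divide, and give rise to neurons and glia. Their position along the tube is read from transcription factors such as OTX2, EMX2, EN1 and the HOX genes, while WNT, BMP, FGF and retinoic acid signals set that position. Secreted WNT antagonists such as DKK1 and SFRP2 bind WNT receptors or ligands, and are in part themselves targets of WNT signalling. Neural crest cells arise beside them, at the border of the neural plate.

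The promoter windows of 3 genes are shown because DKK1 and EMX2 are class markers and SP5 is a widely used WNT target. Each is the 250 bases upstream of the RefSeq gene start on GRCh38.p14, on the plus strand, in lower case, with capitals for matches to CTTTGAA or CTTTGAT or their reverse complements TTCAAAG and ATCAAAG, core letters bound by the WNT effectors TCF and LEF. The windows lie at chr10:52314031-52314280 for DKK1, chr2:170715087-170715336 for SP5 and chr10:117542496-117542745 for EMX2. The EMX2 model of GENCODE v29 starts before its RefSeq start, so that this window lies inside the GENCODE gene.
DKK1: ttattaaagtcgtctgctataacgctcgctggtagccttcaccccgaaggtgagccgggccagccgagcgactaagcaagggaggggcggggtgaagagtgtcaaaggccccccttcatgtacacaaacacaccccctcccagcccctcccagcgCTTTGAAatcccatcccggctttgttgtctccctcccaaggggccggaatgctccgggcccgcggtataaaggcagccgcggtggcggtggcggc
SP5: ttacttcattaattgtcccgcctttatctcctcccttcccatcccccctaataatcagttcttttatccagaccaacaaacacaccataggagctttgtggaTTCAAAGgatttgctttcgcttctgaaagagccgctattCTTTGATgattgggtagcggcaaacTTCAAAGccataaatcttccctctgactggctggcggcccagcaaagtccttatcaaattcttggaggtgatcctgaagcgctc
EMX2: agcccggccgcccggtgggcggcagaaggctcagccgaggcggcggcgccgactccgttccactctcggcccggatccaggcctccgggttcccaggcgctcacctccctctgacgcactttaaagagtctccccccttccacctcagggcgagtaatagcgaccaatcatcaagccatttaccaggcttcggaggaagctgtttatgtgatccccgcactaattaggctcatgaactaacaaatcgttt
The DKK1 window held 1 match, the SP5 window 3 and the EMX2 window 0, and 2086 of all 35116 RefSeq windows (5.94%) held at least 1. Of the listed WNT antagonists 1 of 7 with a window held a match, DKK1, while the class marker SFRP2 held 0. Of the listed WNT receptors and response genes 2 of 9 did, SP5 and SP8, and of the WNT ligands 0 of 12. A match is a run of letters and no measure of binding.

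EMX2 had the highest ratio to the other kept D15 cells among genes with at least 50 CPM. This homeobox factor of the dorsal forebrain (chr10:117542444-117549546, plus strand, GRCh38, GENCODE v29) stood at 255 CPM in NEP (226 to 285), at 3.57 CPM in Mes, at 0.0895 CPM in ENC, and at 0 UMIs in CP1 and CP2. In single NEP cells EMX2 ran from 0 to 13 UMIs with a median of 1, and 55 of the 104 cells had at least 1. Of all 299 EMX2 UMIs in kept D15 cells, 97.7% lay in the NEP class. The D10 NEP cells were at 2.07 CPM, a log2 ratio of 6.38 (5.97 to 6.78) for D15 over D10, and the other D10 classes at 0.798 CPM or less. EMX2OS, a long noncoding RNA on the opposite strand that overlaps EMX2, stood at 56.7 CPM in D15 NEP and 0.926 CPM in D10 NEP. The strand setting of the counting is not given in the sources used here, so reads of the 2 genes cannot be told apart.

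SFRP2 and CLU marked the class at D15 and were near the same level at D10. SFRP2, a secreted WNT antagonist, stood at 555 CPM (513 to 600) in D15 NEP, at 468 CPM in D10 NEP and at 1.59 CPM in the other kept D15 cells. It ran from 0 to 43 UMIs per NEP cell with a median of 2, and 67 cells had a UMI. CLU, a secreted chaperone, stood at 268 CPM (239 to 300), against 185 CPM in D10 NEP, and 84 cells had a UMI of it. Its next class at D15 was CP2 with 134 CPM, while ENC held 1.56 CPM. The D15 over D10 ratio was 0.25 (0.13 to 0.36) for SFRP2 and 0.54 (0.36 to 0.71) for CLU, both small beside that of EMX2.

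DKK1 and KRT19 were carried by fewer cells. DKK1, which blocks WNT co-receptors, stood at 86.3 CPM (70.1 to 105) in D15 NEP and 18.1 CPM in D10 NEP, a log2 ratio of 2.19 (1.85 to 2.52), and 26 NEP cells had a UMI of it, 15 UMIs at most. KRT19, a keratin of simple epithelia, stood at 168 CPM (145 to 194) and at 0.287 CPM in the other kept D15 cells, with 0 UMIs in CP1, CP2 and Mes. KRT19 was at 266 CPM in D10 NEP and at 1225 CPM in the non-neural ectoderm class (NNE) of D10. Of its 193 UMIs in D15 NEP, 80.8% came from 11 cells, which are described further on. Of the 5 markers, 1 NEP cell held all, 13 held 4, 40 held 3, 35 held 2 and 15 held 1. EMX2 and SFRP2 were found together in 38 cells, EMX2 alone of the pair in 17, SFRP2 alone in 29 and neither in 20.

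WNT2B and PAX6, the markers by which the study named its NEP cells, were lower here than at D10. WNT2B, a WNT ligand, stood at 123 CPM (103 to 145) in D15 NEP, 2.55 CPM in the other kept D15 cells and 827 CPM in D10 NEP, a log2 ratio to D10 of -2.74 (-2.99 to -2.50). PAX6, a neuroepithelial and eye-field factor, stood at 112 CPM (93.9 to 134), against 572 CPM in D10 NEP, a log2 ratio of -2.34 (-2.60 to -2.09). The D15 cluster CP2 held more PAX6, 381 CPM, than the NEP class. WNT2B was found in 48 cells, PAX6 in 48, and both in 31. NEP held 48.3% of the kept WNT2B UMIs and 44.0% of those of PAX6, so that each gene had more UMIs outside the class than within it.

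Cells were thinned to 3000 UMIs each to compare shares of cells at 1 depth. EMX2 was then found in 35.6% of D15 NEP cells (26.4% to 45.6%), 0.0203% of ENC cells and 0.667% of D10 NEP cells, and without thinning in 52.9%, 0.101% and 1.16%. PAX6 was found in 20.2% of D15 NEP, 0.0405% of ENC and 70.5% of D10 NEP, and without thinning in 46.2%, 0.203% and 84.5%. WNT2B was found in 28.8%, 0.831% and 78.5% of the same 3 classes, and without thinning in 46.2%, 2.82% and 87.9%. Median depths were 10954, 11082 and 7227 UMIs per cell, and 13 D10 NEP cells under 3000 UMIs were left out. SOX10, the defining crest factor, served as the reverse check, with 0.962% of thinned D15 NEP cells and 25.5% of ENC cells, and without thinning 4.81% and 62.9%.

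**Figure D1:**
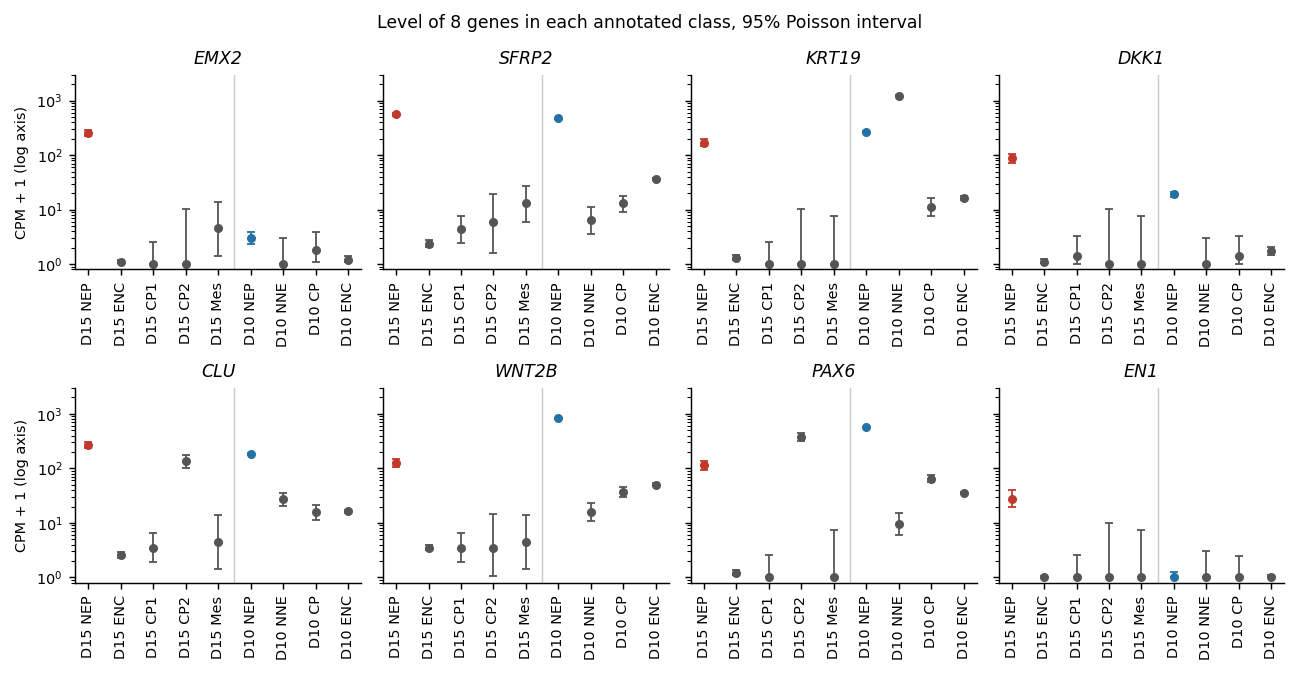
Levels of the 5 class markers and of WNT2B, PAX6 and EN1 in the annotated classes of D15 (left of the line) and D10 (right), as CPM + 1 on a log axis, with 95% Poisson intervals of the class counts. EMX2 was at 255 CPM in D15 NEP and 2.07 CPM in D10 NEP, while WNT2B was at 123 and 827 CPM.

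By Pearson's r the class as a whole resembled D10 NEP most, by a small margin, while the order by rank depended on the genes used. Over 7603 genes Pearson's r of log2 levels was 0.846 with D10 NEP, 0.830 with D15 ENC, 0.821 with D15 Mes and 0.651 with CP2. Spearman's rho was 0.789 with D10 NEP and 0.787 with D15 ENC. Over the 2024 genes with at least 100 CPM in a class, rho was 0.788 with D10 NEP, below 0.795 with D15 Mes and 0.794 with D15 ENC. Genes are not replicates and classes of 1 library share its depth and free RNA. Each NEP cell was also placed on the D10 class whose summed profile gave its counts the highest multinomial likelihood. By this measure 93 of the 104 were nearest to D10 NEP and 11 to D10 NNE, and none to D10 ENC or CP. The placement forces a choice among the D10 classes, so it names the nearest of them and cannot check the D15 label.

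Against the other kept D15 cells, 976 of 5412 genes with at least 20 CPM in either class were at least 2-fold higher in NEP (18.0%) and 303 at least 2-fold lower (5.60%). That split depends on the scaling. With class totals 76.3% of the genes past 2-fold were higher and the median log2 ratio of the 5412 genes was 0.29, whereas with TMM factors (trimmed mean of M-values) 470 genes were higher and 809 lower, 36.7% of them higher, at a median of -0.27. Ratios below are to be read against that shift. The medians of the gene lists are given with their counts of genes with at least 3 UMIs in either class, for which the backgrounds were 17.5% higher and 6.05% lower, with a median of 0.14, or 0.33 with genes at 0 set at their bound.

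The genes that led the class were of several kinds. SPOCK1, a secreted proteoglycan, stood at 249 CPM in NEP and 0.946 CPM in the other kept cells. ANXA1, a phospholipid-binding protein of epithelia, stood at 226 against 0.625 CPM, and the keratin KRT18 at 374 against 2.31 CPM. LGI1, a secreted neuronal protein, stood at 96.8 against 0.169 CPM, and the cell surface protein TPBG at 343 against 6.44 CPM. These genes had all been present in D10 NEP, at 98.9 CPM for SPOCK1, 327 for ANXA1, 538 for KRT18, 12.1 for LGI1 and 232 for TPBG. CDH18, a neural cadherin, had 77 UMIs in 41 NEP cells and 0 in the other kept cells, at least 1325-fold higher against a floor of 3 UMIs over the other kept cells. On the lower side stood the glial and crest genes PLAT at 2.62 against 102 CPM, S100B at 5.23 against 162 CPM, ERBB3 at 4.36 against 101 CPM and SOX10 at 4.36 against 97.6 CPM.

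**Figure D2:**
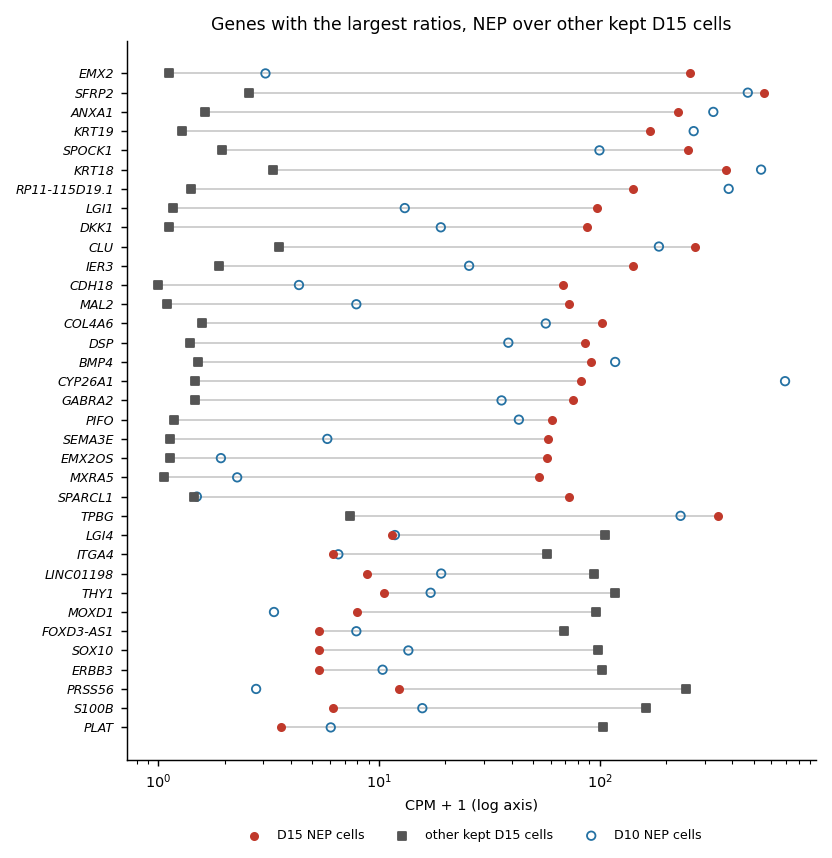
CPM + 1 on a log axis for the 24 genes with the highest and 11 of the 12 with the lowest ratios of D15 NEP over other kept D15 cells, with the D10 NEP level as an open circle. EMX2, EMX2OS, SPARCL1 and MXRA5 were low in D10 NEP, whereas CYP26A1 was higher there, 691 against 81.1 CPM.

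Enteric neural crest genes were low in the class. Of 14 listed crest genes 10 were at least 2-fold lower than in the other kept cells and 1 was higher, with a median log2 ratio of -3.14. Their summed level was 166 CPM in NEP and 1453 CPM in the other kept cells. In single NEP cells it ran from 0 to 970 CPM with a median of 122, against a median of 1446 CPM in ENC cells. FOXD3, a crest specifier, had 2 UMIs in NEP, 1.74 CPM, against 21.9 CPM in the other kept cells. The part of free RNA or of doublets in what remained was not tested.

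In 2 lists of position genes more genes were higher than lower against the other kept D15 cells, but few reached 20 CPM. Of 12 forebrain and midbrain genes, the class marker EMX2 among them, 8 were higher than in the other kept cells and none lower. The 12 had a median of 2.01, and 3 of the list had at least 20 CPM in either class. LHX9, OTX1, EN1 and BARHL2 reached 3 UMIs only in NEP, where 3 UMIs are 2.62 CPM. Their calls as higher thus follow from that minimum, and that of EMX2 from its choice as a marker. Of 14 hindbrain and HOX genes 11 were higher and 1 lower, with a median of 1.64. PAX8 reached 3 UMIs only in NEP, and 1 gene of this list had at least 20 CPM in either class. The summed level of the hindbrain and HOX genes was 69.7 CPM in NEP and 13.7 CPM in the other kept cells. EN1, a factor of the midbrain and hindbrain border, had 31 UMIs in 20 NEP cells (27.0 CPM, 18.4 to 38.4) and 0 UMIs in all other kept classes of both libraries, at least 533-fold higher than in the other kept D15 cells and at least 126-fold higher than in D10 NEP. OTX2, expressed in forebrain and midbrain, stood at 82.8 CPM (67.0 to 101) in D15 NEP, 68.0 in D10 NEP and 1.60 in the other kept D15 cells. OTX1, by contrast, stood at 9.59 CPM at D15 and 65.7 CPM at D10. EMX1 and NKX2-1, factors of the forebrain, had 0 UMIs in the NEP class, a level of up to 2.62 CPM being allowed by a count of 0. EMX2 and EN1 were found in the same cell in 14 cases, EN1 without EMX2 in 6, and EMX2 and OTX2 together in 27.

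Against D10 NEP, 14.0% of 5755 genes with at least 20 CPM were at least 2-fold higher in D15 NEP, 807 in all, and 8.01% lower, 461 in all. Of those calls 63.6% were higher, and with TMM factors, which gave 689 higher and 621 lower, 52.6%. The backgrounds for the lists were 12.5% higher and 11.2% lower at a median of -0.10. Several eye-field and hindbrain genes of D10 NEP were low at D15. SIX6, an eye-field factor, had 0 UMIs against 27.4 CPM in D10 NEP, at least 10.5-fold lower. HOXB1, a hindbrain gene, had 0 UMIs against 28.6 CPM, at least 10.9-fold lower. Of 11 eye and pigment epithelium genes 4 were at least 2-fold lower than in D10 NEP and 3 higher, and of 16 hindbrain genes 5 were lower and 4 higher. PMEL, a pigment cell protein, stood at 21.8 CPM against 307 CPM in D10 NEP.

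General neural progenitor genes were mixed. Of 17 listed genes 5 were higher and 2 lower than in the other kept D15 cells, with a median of 0.47, and of 16 compared with D10 NEP 3 were higher and 4 lower. SOX3 stood at 18.3 CPM against 0.0845 in the other kept cells, ZIC1 at 37.5 against 0.101 CPM, and ZIC2 at 62.8 against 0.439 CPM, all 3 being factors of early neuroectoderm. SOX2, a factor of neural progenitors that early crest cells also express, stood at 29.6 CPM in NEP and 21.1 CPM in the other kept cells. SOX1 had 0 UMIs and HES5, a Notch target of neural progenitors, 1. CDH2, the cadherin of neural epithelium, stood at 168 CPM in D15 NEP, 135 in D10 NEP and 28.1 in ENC.

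Of the 14 listed WNT antagonists, 7 were at least 2-fold higher in D15 NEP than in each reference, though not the same 7. SFRP2 was past 2-fold over the other kept D15 cells only. Of 11 listed antagonists 7 were at least 2-fold higher than in the other kept D15 cells and none lower (median 3.40). Of 12 against D10 NEP 7 were higher and none lower (median 1.43). The list holds the class markers DKK1 and SFRP2, which were chosen with earlier results of these data known. Their calls over the other kept D15 cells add nothing to that choice. With genes at 0 set at their bound the medians were 3.74 and 1.85. APCDD1, a membrane inhibitor of WNT, stood at 144 CPM in D15 NEP, 23.6 in D10 NEP and 8.82 in the other kept D15 cells. FRZB, a secreted antagonist, stood at 85.4, 5.84 and 15.5 CPM, although the D15 Mes class held 178 CPM. DKK3 stood at 34.9, 8.98 and 1.45 CPM and KREMEN2, a DKK receptor, at 15.7, 0.285 and 0.372 CPM. DKK4 had 11 UMIs in 5 NEP cells, 8 of them in 2 cells, and 0 UMIs in every other kept class, at least 189-fold higher than in the other kept D15 cells. It thus passed the minimum of 3 UMIs only through NEP. SFRP1 was no part of the pattern, at 44.5, 32.4 and 59.9 CPM.

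Of 8 WNT ligands 7 were higher and none lower than in the other kept D15 cells (median 1.73). That count rested on few UMIs, since ligands other than WNT2B had 7 UMIs or fewer in NEP. With a minimum of 20 CPM 1 ligand was higher, and with a pseudocount of 5 CPM 2 were. After thinning to 3000 UMIs 2 were higher and 1 lower. Of 15 WNT receptors and response genes 4 were higher and none lower (median 0.52). Of 9 ligands compared with D10 NEP 3 were higher and 3 lower, and of 17 receptors and response genes 3 were higher and 1 lower. SP5, whose promoter window with 3 matches is shown above, stood at 29.6 CPM (20.5 to 41.4) in 26 cells, against 0.997 CPM in D10 NEP and 11.8 in the other kept D15 cells. NKD1, an inducible WNT inhibitor, stood at 20.9 CPM against 4.84 in D10 NEP and 7.80 in the other kept cells, and LEF1, a WNT effector, at 23.5 against 10.6 and 14.5 CPM. AXIN2, another target, stood at 12.2 CPM (6.67 to 20.5) against 23.2 CPM in D10 NEP. RSPO1 and RSPO3, secreted enhancers of WNT signalling, were at 15.7 CPM each, against 1.21 and 0.570 CPM in D10 NEP.

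Most detected genes of the FGF list, which holds ligands and receptors beside response genes, were also higher. Of 11 listed genes 8 were higher and none lower than in the other kept D15 cells (median 1.91), and 8 were higher and 2 lower than in D10 NEP (median 2.41). The 8 over the other kept D15 cells include the ligand FGF18 and the receptors FGFR1 and FGFR2. The response genes ETV5 and SPRED1 were not past 2-fold there. SPRY1, a feedback inhibitor of FGF signalling, stood at 49.7 CPM in D15 NEP, 1.42 in D10 NEP and 2.04 in the other kept cells. DUSP6, a phosphatase of ERK, stood at 161, 18.8 and 30.8 CPM, and the FGF-driven factor ETV4 at 37.5, 0.0712 and 4.85 CPM. The receptors FGFR2 and FGFR3 were the 2 lower genes, at 6.10 and 0.872 CPM against 34.0 and 8.05 CPM in D10 NEP, with 7 UMIs and 1 UMI behind the D15 values. ETV4 also differed between D10 and D15 in other classes, with 0.108 CPM in D10 ENC and 3.78 CPM in D15 ENC.

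The BMP targets ID1, ID2 and ID3 and most retinoic acid genes stood lower than in D10 NEP. Of 16 BMP and TGF-beta genes 7 were lower and 5 higher than in D10 NEP, while 10 were higher and 1 lower than in the other kept D15 cells. The BMP targets ID1, ID2 and ID3 stood at 115, 37.5 and 229 CPM in D15 NEP and at 671, 547 and 1585 CPM in D10 NEP. In D15 ENC they stood at 6.77, 9.88 and 79.4 CPM. ID4 went the other way within D15. NEP held 8 of its 1784 UMIs in kept D15 cells, or 0.448%, against 1.90% of all kept UMIs. The ligand BMP4 differed little between stages, at 90.7 CPM (74.1 to 110) and 117 CPM. Of 13 retinoic acid genes 9 were lower and 2 higher than in D10 NEP, with a median of -1.62. CYP26A1, the enzyme that degrades retinoic acid, stood at 81.1 CPM against 691 CPM, DHRS3, which turns retinal back into retinol, at 12.2 against 112 CPM, and the binding protein CRABP2 at 868 against 2665 CPM.

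**Figure D3:**
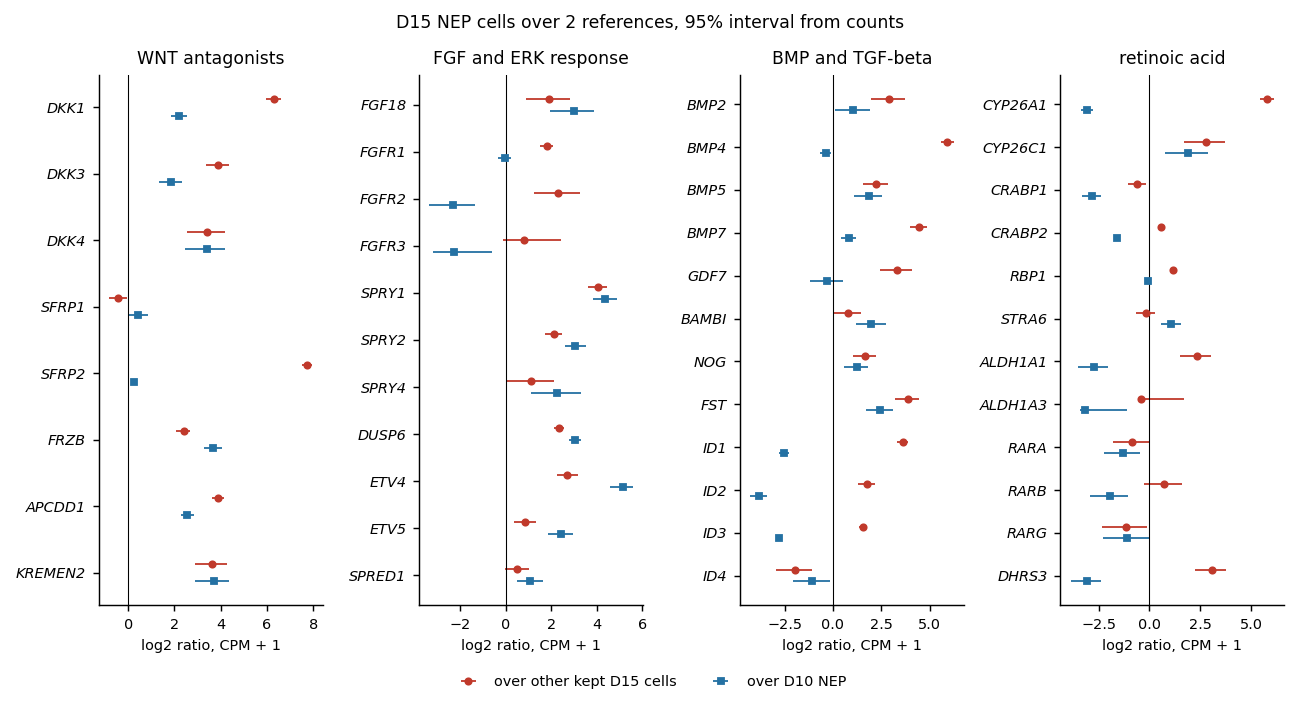
Log2 ratios of CPM + 1 with 95% intervals for the genes of 4 signalling lists with at least 5 CPM in a class, D15 NEP over other kept D15 cells (circles) and over D10 NEP (squares). The antagonists DKK1, DKK3, FRZB and APCDD1 lay right of 0 against both references, whereas ID1, ID2, ID3 and CYP26A1 lay right of 0 against other D15 cells and left of 0 against D10 NEP; DKK4, FGF18 and ALDH1A3 had a class at 0 UMIs, so their plotted ratio is no bound.

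A smaller share of NEP than of ENC cells was called in S or G2M. In the deposited phase calls 81.7% of NEP cells were in G1 (72.9% to 88.6%), 9.62% in S and 8.65% in G2M, against 34.7%, 42.4% and 22.9% of ENC cells and 70.0%, 15.8% and 14.2% of D10 NEP cells. Of 11 listed proliferation and cell cycle inhibitor genes 4 were lower and 2 higher than in the other kept D15 cells (median -0.75), the 2 being the inhibitors CDKN1A and CDKN1C. Against D10 NEP 2 were lower and 3 higher (median -0.13), the lower ones being MKI67 and CCNA2 and the higher ones TYMS, CDKN1A and CDKN1C. MKI67, a marker of dividing cells, stood at 28.8 CPM (19.8 to 40.4) in D15 NEP, 96.9 in ENC and 68.7 in D10 NEP. TOP2A, needed for chromosome separation, stood at 99.4, 297 and 141 CPM. CDKN1A, an inhibitor of the cell cycle, stood at 95.9 CPM in D15 NEP against 11.3 in ENC and 12.0 in D10 NEP.

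Most listed neuron genes were higher than in D10 NEP, and none was 2-fold higher than in the other kept D15 cells. Of 7 listed neuron genes 5 were higher than in D10 NEP and none lower (median 2.04), while of 8 compared with the other kept D15 cells none was higher and 3 were lower. NEFM, a neurofilament outside that list and among the leading genes over D10 NEP, stood at 475 CPM in D15 NEP in 67 cells, 6.55 in D10 NEP, 25.1 in D15 ENC and 2376 in CP1. STMN2, a protein of growing axons, stood at 100 CPM, against 2.14 in D10 NEP, 14.3 in ENC and 1543 in CP1. SST, the peptide somatostatin, stood at 55.8 CPM (43.0 to 71.2) in NEP and 56.8 in ENC, whereas CP1 held 7858 CPM. NEP thus had the SST level of ENC, and more NEFM and STMN2 than ENC, and the part of free RNA from CP1 and CP2 was not tested.

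The class was not uniform. Clustering of the 104 cells on 1000 variable genes and 6 principal components gave 4 groups of 80, 9, 11 and 4 cells, chosen after the data were seen and named here by leading genes. The groups of 11 and of 4 stayed whole and free of other cells in all 8 settings tried, while the group of 9, led by division genes such as TOP2A and CENPF, took in up to 80 others.

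The 11 cells carried genes of a simple epithelium. KRT19 ran from 3 to 34 UMIs per cell with a median of 12 in the 11 cells, and from 0 to 5 UMIs in the 80 cells of the main group. EPCAM, an epithelial adhesion molecule, ran from 2 to 9 UMIs in the 11 and was at 6.69 CPM in the main group against 325 CPM in the 11. The tight junction genes CLDN7 and CLDN6 stood at 300 and 284 CPM, with 0 UMIs of CLDN7 in all other NEP cells. EMX2, SFRP2, DKK1, WNT2B, PAX6, SOX2, SPOCK1 and EN1 had 0 UMIs in the 11 cells, so that of the 5 class markers they held KRT19 and, in 4 cells, CLU. All 11 were the cells nearest to D10 NNE, and their summed profile had an r of 0.853 with D10 NNE and 0.787 with D10 NEP over 2024 genes. D10 NNE held 1225 CPM of KRT19, 248 of EPCAM, 349 of CLDN7 and 410 of CLDN6. Depth was ordinary, 9443 to 11892 UMIs per cell, and crest markers summed to 292 CPM in the 11 cells and 161 CPM in the main group.

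Several values of the class rested on these 11 cells. Without them the log2 ratio of KRT19 was 4.85 in place of 7.04 over the other kept D15 cells, and -2.85 in place of -0.66 over D10 NEP. Of 14 epithelial genes, the class marker KRT19 among them, 11 were higher than in the other kept D15 cells with the 11 cells. Without them 7 were higher, and the medians were 4.06 with and 1.12 without them. Against D10 NEP 4 of 16 epithelial genes were higher and 2 lower with the 11 cells, and 0 higher and 8 lower without them. KRT18 and KRT8, keratins that many early epithelia express, were present in the main group too, at 351 and 250 CPM.

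The 4 cells carried genes of motile cilia. TPPP3, a tubulin-binding protein, ran from 36 to 73 UMIs in each, 203 of the 206 UMIs of the whole class. CFAP126 stood at 1273 CPM in the 4 cells, CCNO, a factor of multiciliated cell formation, at 1251 CPM and from 2 cells, and FOXJ1, the regulator of motile cilia, at 182 CPM from 8 UMIs. All 4 had UMIs of CLU, 5 to 12 each, and were nearest to D10 NEP among the D10 classes. Their summed profile had an r of only 0.624 with D10 NEP and 0.612 with D15 ENC. CFAP126 and CDC20B had 0 UMIs in D10 NEP, TPPP3 stood at 107 CPM there. No type name is given to 4 cells.

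The main group held 82.5% of the EMX2 UMIs of the class, while the TOP2A group had the higher EMX2 level. Of its 80 cells 46 had EMX2, 59 SFRP2, 24 DKK1, 69 CLU, 44 PAX6 and 42 WNT2B, and 75 were called G1. The levels were 269 CPM for EMX2, 637 for SFRP2 and 104 for DKK1. In the 9 cells of the TOP2A group EMX2 was found in 8, at 564 CPM (417 to 745), while 2 were called G1, 5 S and 2 G2M. CYP26A1 stood at 103 CPM in the main group from 34 cells, and had 1 UMI in the other 24 NEP cells.

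**Figure D4:**
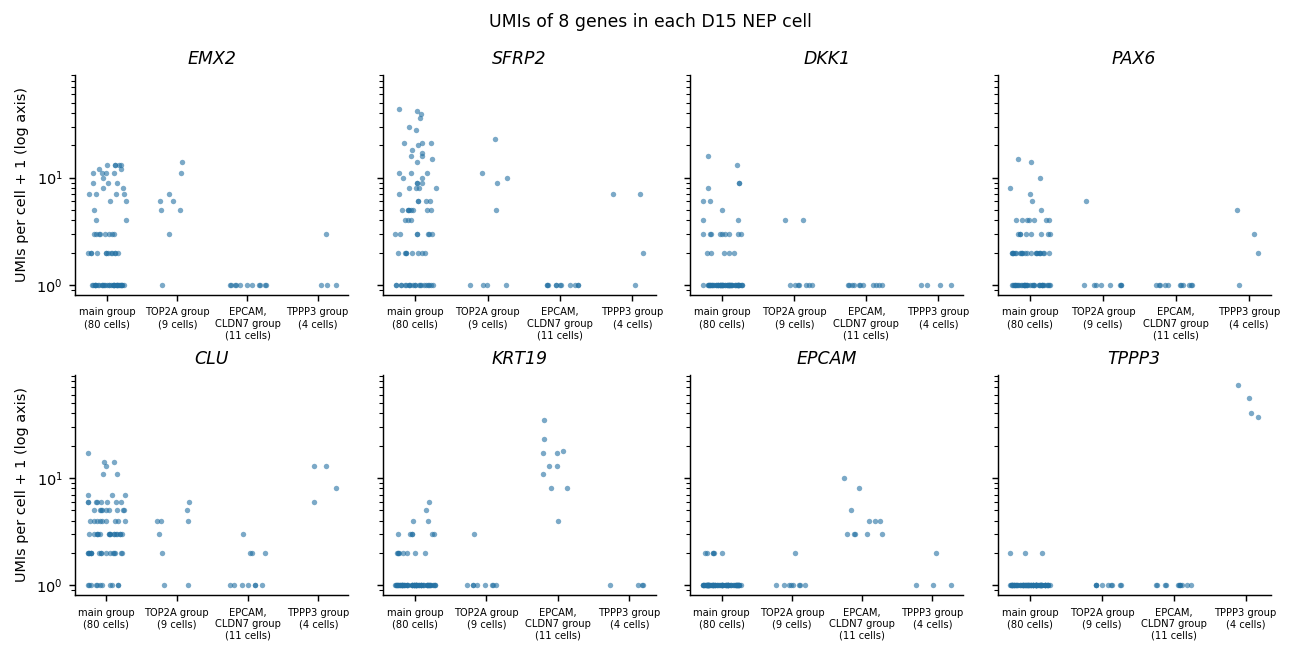
UMIs + 1 of 8 genes in each of the 104 D15 NEP cells on a log axis, 1 point a cell, by the 4 groups; points are spread sideways at random. The 11 cells held 3 to 34 UMIs of KRT19 and 0 of EMX2, SFRP2, DKK1 and PAX6, and the 4 cells 36 to 73 UMIs of TPPP3.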

How the data were processed

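Per the labels, libraries were made with the 10x Chromium 3′ v3.1 kit; the submitters' processing notes name the build GRCh38, Cell Ranger and Seurat 4.0.4, while the study's methods name kallisto/bustools. The authors deposited raw UMI counts per gene and cell, and a cell annotation with counts of UMIs and genes, the percent of mitochondrial and ribosomal UMIs, a fraction (log genes over log UMIs), phase and cell type. No row lacked a gene and no column was unmapped. Here the UMIs of all cells of a class were added up and given as CPM with exact Poisson intervals. Ratios used CPM + 1, with an interval combining both Poisson intervals, tested on simulated data. Genes with at least 20 CPM in either class were counted past 2-fold. Leading genes were the 24 highest and 12 lowest ratios over the other kept D15 cells, and 12 each way over D10 NEP, among genes with at least 50 CPM and a UMI in 25% of cells of the higher class, without mitochondrial, ribosomal protein and Y-linked genes and XIST. The cells, markers and 27 gene lists were chosen with earlier results of these data known. No doublet caller was run. Cells were placed on the class whose summed profile gave their counts the highest multinomial likelihood. NEP cells were grouped by Ward clustering. Tools were Python 3.11.15, scanpy 1.11.5, scikit-learn 1.9.0, R 4.3.3 and edgeR 4.0.16 (TMM factors only). Gene positions are from GENCODE v29. Alternatives were other minimums, a pseudocount of 5, TMM, thinning, and leaving out groups of cells. Some genes are not reported here.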

Additional observations from a re-analysis of the deposited data

Results flagged for a closer look

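Cells with the NEP profile were also found among those left out of the annotation. Of the 984 D15 cells that the deposited filter removed, which enter none of the comparisons above, 41 had a profile most like the D15 NEP class. They held 1442 to 5427 genes and 6366 to 36006 UMIs per cell, and 40 of them were at or over the limit of 3500 genes. EMX2 stood at 284 CPM (247 to 325) in these cells, SFRP2 at 528, KRT19 at 399, DKK1 at 74.4, CLU at 158, WNT2B at 54.1 and PAX6 at 97.4 CPM. Against D10 classes 33 were nearest to NEP and 8 to NNE. Their summed crest markers ran from 0 to 2042 CPM with a median of 127. How many are doublets was not tested.

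Of 322 listed genes, 22 had NEP ratios of opposite sign at D15 and D10 with both intervals clear of 0, and the 5 given here were also at least 2-fold at both stages with more than 3 UMIs in both NEP classes. Each value is the log2 ratio of NEP over the other kept cells of the same library, and the difference between stages was not tested. PMEL was at -2.73 at D15 and 3.19 at D10. The tight junction genes CLDN4 and CLDN7 were at 4.22 and 4.71 at D15 and at -1.16 and -1.65 at D10, where the other kept cells include NNE; at D15, where no class is called NNE, the 11 cells above held all CLDN7 UMIs of the class. COL1A1 was at 1.16 from 7 UMIs at D15 and -2.25 at D10. The metallothionein MT2A was at 1.96 and -1.77.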

How the results depend on the processing

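The main limit is 1 library per stage and 104 cells, so that a gene at 0 UMIs in NEP may stand at up to 2.62 CPM; intervals and floors cover counting error only, and variation between cultures cannot be read. No paired analysis was possible because each stage is 1 library and the results come from no test. With a minimum of 50 CPM, 430 genes were higher and 135 lower than in the other kept D15 cells, and 409 and 203 against D10 NEP; with 3 UMIs and no CPM minimum the counts were 3186 and 1102, and 2085 and 1880. TMM gave 470 and 809 against the other kept cells, and 689 and 621 against D10 NEP. Thinning to 3000 UMIs gave 718 lower than D10 NEP, and Pearson's r with D10 NEP was 0.870 on log2(CPM + 5); the cause was not tested. The median of the WNT ligands list over the other kept cells, 1.73, was -0.59 after thinning, when fewer genes had UMIs. Leaving out the groups of 11 or of 4 cells, or all but the main group, was chosen after the data were seen. Among single genes and lists 296 further values moved by more than their interval, 1.5 times or, for list medians, a set step in log2 ratio, and 1131 did not.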

Other observations

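Other gene groups of the D15 NEP cells follow as values. SAT1, an enzyme of polyamine breakdown, stood at 1463 CPM in NEP, 106 in the other kept D15 cells and 70.8 in D10 NEP; it was at 1591 CPM in the main group and 75.1 CPM in the 11 cells. In the Notch list HEY1, a target, stood at 94.1 CPM against 4.73 in the other kept cells and 13.7 in D10 NEP, and the ligand JAG1 at 87.2 against 9.95 and 14.8 CPM. Over 14 genes, however, 4 were higher and 3 lower than in the other kept cells. The 3 lower genes were HEY2, HES5 and HES6, with 2, 1 and 10 UMIs in NEP of 1074, 309 and 3815 in kept D15 cells. FAM181B stood at 131 CPM, against 4.02 and 0.784 CPM, and SPARCL1 at 71.5 against 0.456 and 0.499 CPM.

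Among genes high in D10 NEP, BHMT, an enzyme of methionine synthesis, had 0 UMIs at D15 against 84.4 CPM, at least 32.3-fold lower. CCL2, a chemokine, stood at 6.10 against 280 CPM, TLX2, a homeobox factor, at 3.49 against 118 CPM and PCP4 at 10.5 against 260 CPM. CCL2 was at 300 CPM in the D15 Mes class.

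The 14 chaperone and stress genes include the class marker CLU. Of the 14, 5 were at least 2-fold higher than in the other kept D15 cells and 4 than in D10 NEP. HSPB1, a small heat shock protein, stood at 362 CPM against 122 and 62.7 CPM. NENF stood at 171 CPM in D15 NEP and 4.77 in D10 NEP; it was at 110 CPM in D15 ENC and 2.98 in D10 ENC.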
